A study of Mus musculus with 11 samples.

Results

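Pparg encodes PPARγ, a nuclear receptor that binds DNA as a partner of a retinoid X receptor and is required for fat cells to form. It is the receptor of rosiglitazone, a thiazolidinedione drug. The GRCm38 annotation gives Pparg (ENSMUSG00000000440.12) 7 transcripts on chromosome 6 between positions 115360951 and 115490399, plus strand, and all 7 were found among the 132288 transcripts of the deposited tables. Transcripts were typed by their annotated start codon. A transcript that starts at the upstream codon at position 115422111 codes for the longer protein PPARγ2 and was called Pparg2-type, and one that starts at the codon at position 115439848 codes for PPARγ1 and was called Pparg1-type.

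Transcription of Pparg begins at separate promoters, and both proteins share everything from the PPARγ1 start onward. As background, PPARγ2 is largely restricted to fat cells, while PPARγ1 is also made in macrophages, endothelium and other cells. Bound to an agonist, the receptor recruits coactivators and switches on genes of lipid uptake, storage and adipokine secretion.

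The study measured RNA of whole inguinal white adipose tissue from C57BL6/J mice aged 16 weeks. Controls (WT) carried floxed Raptor alleles, and KO mice carried floxed Raptor with an adiponectin-driven Cre, which removes Raptor, a subunit of the kinase complex mTORC1, from adipocytes and leaves it in the other cells of the depot. All mice ate a high-fat diet for 8 weeks, alone (diet) or with a daily 30 mg per kg of rosiglitazone. The 11 libraries comprised 3 WT diet, 3 WT rosiglitazone, 2 KO diet and 3 KO rosiglitazone libraries. The titles of all 6 WT libraries name the opposite treatment to their treatment field, which was used here, so each statement on a WT treatment depends on that choice. The labels do not say whether libraries came from separate animals, so p-values measure the spread between these libraries.

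Library totals ran from 13035346 to 40925952 estimated reads. Rptor, the targeted gene, was at 73.9 to 92 CPM (a count scaled by library total after TMM normalisation) in WT diet, 110 to 126 in WT rosiglitazone, 56.5 and 69.6 in KO diet and 82.4 to 91.7 in KO rosiglitazone libraries, lower in KO than in WT within each treatment, but with no adjusted p under 0.05 (edgeR adjusted p = 0.467 for a log2 fold change of -0.38 on diet, 0.0749 for -0.44 with the drug). All 14 mature adipocyte markers, including Adipoq, Plin1 and Fabp4, were detected and tested. The libraries also held RNA of B cells (210 to 1332 CPM summed over 10 markers) and of skeletal muscle. The sum of 8 muscle markers was 2681 to 11876 CPM in 4 libraries, WT diet 2, WT rosiglitazone 2 and 3 and KO rosiglitazone 2, and 10.2 to 266 CPM in the other 7. In whole tissue, fewer cells of a type and less RNA per cell cannot be told apart.

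Pparg-201 was the only Pparg2-type transcript. Its first exon of 127 bases (6:115422066-115422192) occurs in no other Pparg transcript, 82 of those bases are coding, and its coding sequence holds 505 codons. The full-length Pparg1-type transcripts are Pparg-202 and Pparg-204, with 475 codons each, so that PPARγ2 has 30 extra codons. They differ in their noncoding first exons, of 420 bases in Pparg-202 and 126 bases in Pparg-204, whose starts lie 1341 bases apart. Pparg-206 and Pparg-207 share the PPARγ1 start codon but are annotated with only 289 and 666 coding bases. Pparg-203 and Pparg-205 are retained-intron transcripts with no start codon and were left untyped. Pparg-201 and Pparg-204 share 1635 bases, so most reads can be assigned only by Salmon's model. In no other Pparg transcript are 127 bases of Pparg-201, 420 of Pparg-202 and 57 of Pparg-204, the rest of whose first exon also occurs in Pparg-206. Pparg-202 and Pparg-204 also share a short noncoding second exon that Pparg-201 lacks.

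The coding sequence that separates the proteins runs from the PPARγ2 start codon to the PPARγ1 start codon, both given in capitals. It is read from the GENCODE M21 sequence of Pparg-201.
Pparg2-type coding start: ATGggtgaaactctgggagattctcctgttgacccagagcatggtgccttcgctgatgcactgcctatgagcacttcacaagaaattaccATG

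**Figure D1:**
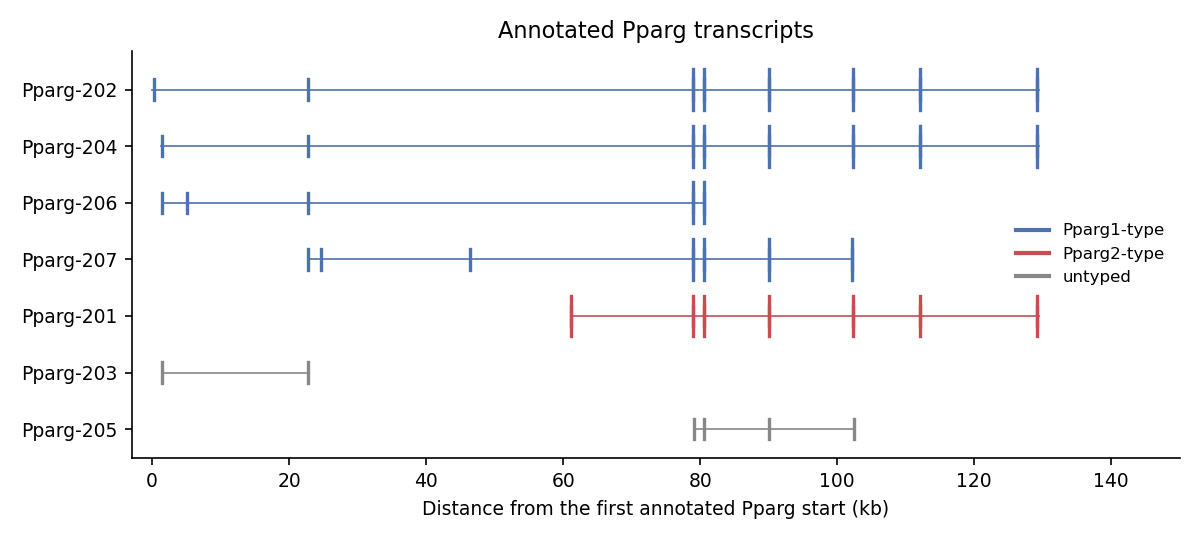
The 7 annotated Pparg transcripts against the distance from the first start in kb (thin lines, introns; short ticks, exons; tall ticks, exons with coding sequence; ticks mark exon centres and are wider than scale). Pparg-202 and Pparg-204 start at the far left, and the first exon of Pparg-201 (red) lies 61115 bases downstream of the first start.

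Because the starts are read from different promoters, the sequences just upstream of each are shown here. They are RefSeq sequences of build GRCm38.p6, plus strand, cut where the first GENCODE exon begins. Motifs searched on both strands were the GC box (GGGCGG), the box named for its letters CCAAT, the motif TATAAA of the TATA box, the C/EBP-like motif TTNNGCAA, and AGGTCA, the core of nuclear receptor sites, with its direct repeat at a spacing of 1 base (DR1, the arrangement PPARγ binds). Capitals mark the matches, and neighbouring motifs did not overlap.
Upstream of Pparg-202 (6:115360894-115360950): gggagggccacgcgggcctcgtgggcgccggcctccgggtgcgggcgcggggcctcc
Upstream of Pparg-204 (6:115362099-115362291): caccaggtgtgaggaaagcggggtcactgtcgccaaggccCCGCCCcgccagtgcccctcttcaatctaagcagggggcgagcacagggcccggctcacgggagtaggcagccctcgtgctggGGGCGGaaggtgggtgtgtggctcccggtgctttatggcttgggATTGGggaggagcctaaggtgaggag
Upstream of Pparg-201 (6:115421816-115422065): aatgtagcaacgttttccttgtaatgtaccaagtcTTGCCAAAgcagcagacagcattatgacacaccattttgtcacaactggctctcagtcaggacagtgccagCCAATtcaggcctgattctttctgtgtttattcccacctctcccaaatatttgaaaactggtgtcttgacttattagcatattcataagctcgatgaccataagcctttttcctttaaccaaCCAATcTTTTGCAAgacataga

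The windows differed in base composition, at 87.7% G or C upstream of Pparg-202, 66.8% upstream of Pparg-204 and 40.8% upstream of Pparg-201. The 193-base window of Pparg-204 held 2 GC boxes, which 23.5% of 32851 promoter windows of that length and position hold at least once, and 1 match to CCAAT (27.3%). The 250-base window of Pparg-201 held 2 matches to CCAAT (33.8% of windows) and 2 matches to TTNNGCAA (9.56%), 1 of them beginning 16 bases upstream of the start. The TATAAA motif was in none of the windows, nor was the nuclear receptor core or DR1, and the 57-base window of Pparg-202 held none of the 6 motifs. These are letter matches only.

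Pparg RNA was lower in KO rosiglitazone tissue than in any WT tissue. Summed over all transcripts, Pparg stood at 185, 93.9 and 77 CPM in the WT diet libraries, 138, 185 and 163 CPM in WT rosiglitazone, 152 and 41.7 CPM in KO diet, and 45.3, 62.1 and 45.1 CPM in KO rosiglitazone. All 6 WT libraries lay above all 3 KO rosiglitazone libraries, whichever treatment the WT libraries are given. The 2 KO diet libraries stood far apart, the first among the WT values and the second below every other library. Group means were 162 ± 23.6 CPM (SD, n = 3) in WT rosiglitazone, 118 ± 57.9 (n = 3) in WT diet, 96.8 ± 78 (n = 2) in KO diet and 50.8 ± 9.8 (n = 3) in KO rosiglitazone. In that order, neighbouring groups differed by less than the larger of their SDs.

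**Figure D2:**
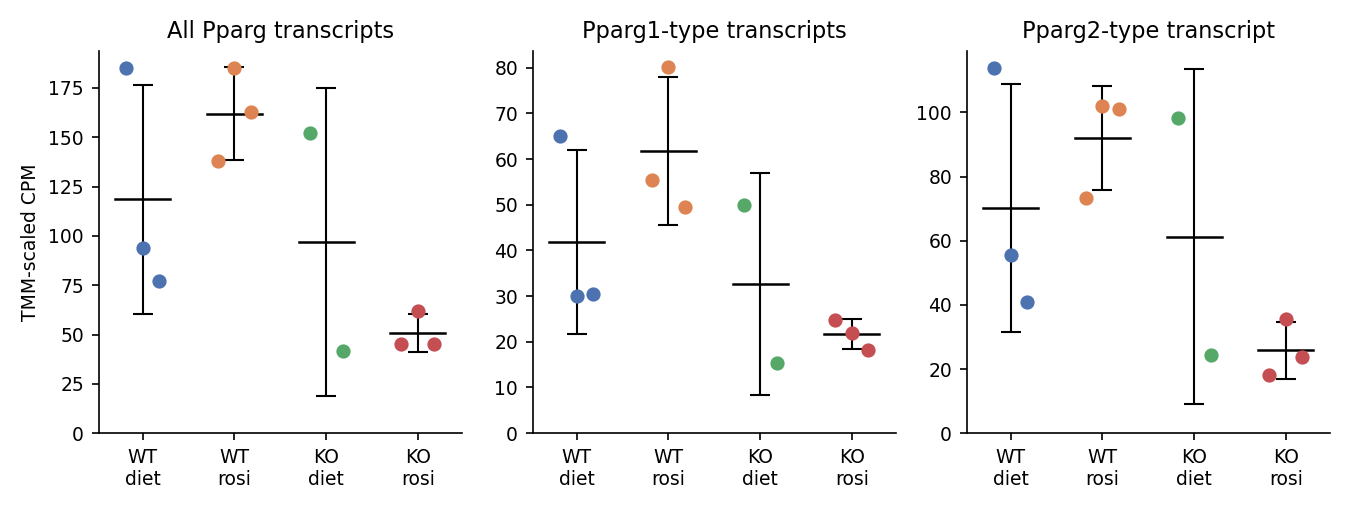
Pparg in TMM-scaled CPM (vertical axes, from 0) by group for all transcripts, the Pparg1-type transcripts and the Pparg2-type transcript; points are libraries, bars are means and SD. The 3 KO rosiglitazone libraries (45.1 to 62.1 CPM for all transcripts) lie under the 6 WT libraries (77 to 185 CPM), and the 2 KO diet libraries lie far apart.

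Per length, Pparg was among the more abundant messages of the tissue. TPM values were rescaled so that protein-coding genes sum to the same total in each library, because protein-coding genes held only 13.9% of TPM in KO rosiglitazone 1 and up to 49% elsewhere, with a single transcript at 47% of TPM in that library. On this scale Pparg averaged 277 ± 65 in WT diet, 297 ± 23.1 in WT rosiglitazone, 239 ± 163 in KO diet and 126 ± 36.5 in KO rosiglitazone. It ranked 450, 477, 579 and 1614 of 21810 protein-coding genes in those groups. The other PPAR receptors were lower in each group mean. Ppara, the receptor that drives fatty acid oxidation genes, averaged 29.6 ± 6.3, 85.8 ± 36.9, 33.4 ± 19.4 and 29.9 ± 12.5 rescaled TPM in the same order, and Ppard, the broadly expressed member, 32.2 ± 5.38, 29.2 ± 7.27, 35.2 ± 17.6 and 31.9 ± 1.84.

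Pparg passed the test in 1 of 5 comparisons, KO against WT with rosiglitazone. There KO was lower than WT by a log2 fold change of -1.67 ± 0.46 (SE), 3.19-fold lower, with an edgeR adjusted p of 0.0373 over all 26960 genes tested. In that comparison 9.5% of all genes were called lower and 5.47% higher, so Pparg fell in a contrast where such calls were common. The call did not survive some changes of setting. It was lost when any 1 of the 6 compared libraries was left out (log2 fold changes from -1.78 to -1.57, adjusted p from 0.0687 to 0.124), when WT treatments were taken from the titles (-1.22, adjusted p = 0.207), and without the 4 muscle-rich libraries (-1.53, adjusted p = 0.625), an alternative chosen after seeing the data that leaves 1 WT rosiglitazone library, assumed to vary like the other groups. DESeq2 (-1.67, adjusted p = 0.00331) and limma-voom (-1.65, adjusted p = 0.000424) called it. With the B-cell marker sum as a covariate the difference did not pass. The mature adipocyte marker covariate turned its sign (1.39), and both fits are described below.

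On diet alone the genotypes overlapped, and the log2 fold change of KO against WT was -0.29 ± 0.50 (edgeR adjusted p = 0.91). The sign turned to 0.36 without KO diet 2 and to 0.18 without WT diet 1. Rosiglitazone, the ligand of PPARγ, gave a log2 fold change of 0.45 ± 0.45 in WT (adjusted p = 0.646) and -0.93 ± 0.49 in KO (adjusted p = 0.678), and neither passed. Limma-voom called the WT difference (0.79, adjusted p = 0.0305). Grouping WT by title swaps the WT groups, so the sign of the WT difference necessarily turns, to -0.45. The KO value rested on 1 library, since without KO diet 1 it was 0.29. The difference between the drug's effects in KO and WT, tested as the interaction, was -1.38 ± 0.67 (adjusted p = 0.507).

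**Figure D3:**
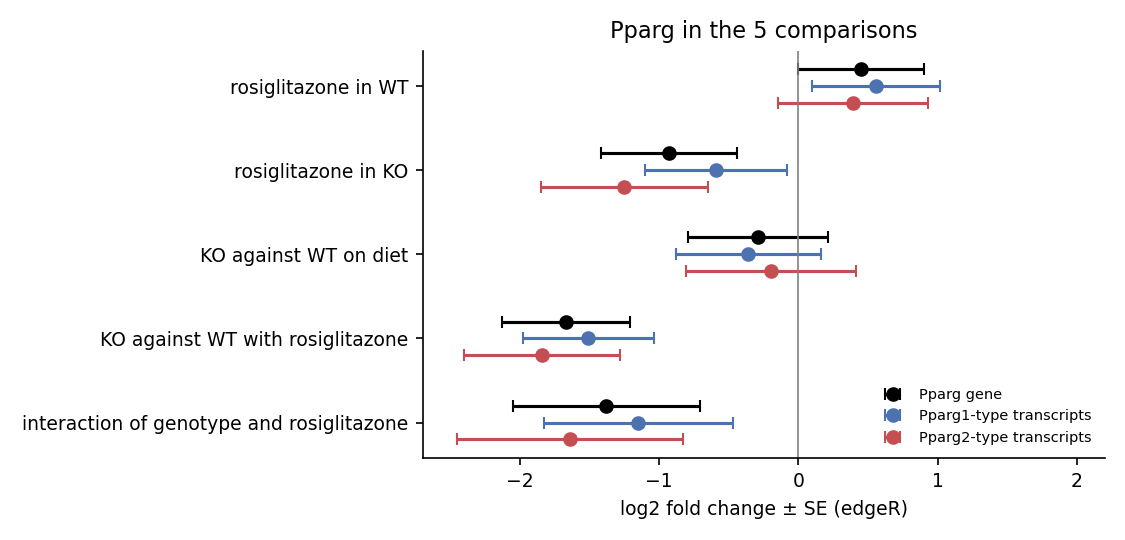
The log2 fold change (horizontal axis, with SE) of the Pparg gene, the Pparg1-type transcripts and the Pparg2-type transcript in 5 comparisons fitted in edgeR. The 3 features point the same way in each comparison, and their values for KO against WT with rosiglitazone run from -1.84 to -1.51.

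Both types had their lowest group mean in KO rosiglitazone. The Pparg2-type transcript stood at 114, 55.7 and 41 CPM in WT diet, 73.2, 102 and 101 in WT rosiglitazone, 98.3 and 24.3 in KO diet and 18.1, 35.6 and 23.7 in KO rosiglitazone. The Pparg1-type transcripts together stood at 65.1, 30 and 30.5 CPM in WT diet, 55.5, 80.1 and 49.6 in WT rosiglitazone, 49.9 and 15.4 in KO diet and 24.8, 21.9 and 18.2 in KO rosiglitazone. For both types every WT library exceeded every KO rosiglitazone library. Among features of the transcript fit, of which 2.1% of 71124 were called in KO against WT with rosiglitazone, neither type passed edgeR's test. Log2 fold changes were -1.84 ± 0.56 for Pparg2-type (adjusted p = 0.134) and -1.51 ± 0.47 for Pparg1-type (adjusted p = 0.138). DESeq2 called both (-1.88, adjusted p = 0.0102, and -1.56, adjusted p = 0.0139), as did limma-voom and the fit of the compared groups alone. In the other comparisons no type passed edgeR's test, with log2 fold changes between -1.64 and 0.56.

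Pparg2-type RNA exceeded Pparg1-type RNA per length in 8 of 11 libraries, with the short Pparg-206 and Pparg-207 counted as Pparg1-type. Among full-length transcripts alone, its share of TPM was 49.2% in KO rosiglitazone 1 and 62.6% to 73.5% in the other libraries. In typed reads its share was 42.2% in KO rosiglitazone 1 and 56% to 67% in the others. The Pparg2-type share of typed TPM was 58.9%, 58.8% and 49.8% in WT diet, 51.4%, 51.9% and 63.5% in WT rosiglitazone, 60.6% and 56.7% in KO diet, and 41.9%, 54.6% and 49.5% in KO rosiglitazone. The KO rosiglitazone libraries were the lowest on average, at 48.7% ± 6.38 (n = 3). Their range lay below the KO diet libraries but overlapped that of both WT groups. Averaged within genotype, the share differed by -5.1 percentage points with rosiglitazone against diet (two-sided exact permutation test over 200 regroupings, p = 0.215, 0.43 adjusted over the 2 share tests), with -0.213 points in WT and -9.98 points in KO. Averaged within treatment, KO differed from WT by -2.09 points (exact permutation p = 0.575, adjusted 0.575), with 2.8 points on diet and -6.97 points with rosiglitazone. No difference in type use was detectable at this number of libraries, and the depth behind the shares was 676 to 5679 typed reads a library.

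Among the full-length Pparg1-type transcripts, the Pparg-202 share of Pparg-202 plus Pparg-204 TPM ran from 23.2% to 86.7%. Pparg-202 stood at 19.3, 13.9 and 15.7 rescaled TPM in WT diet, 23.1, 22.9 and 33.2 in WT rosiglitazone, 19.9 and 6.27 in KO diet and 31.1, 21.6 and 15.3 in KO rosiglitazone. The KO rosiglitazone range overlapped that of every other group. Pparg-204 stood at 50.8, 27.1 and 27.8 in WT diet, 39.1, 54.1 and 20.8 in WT rosiglitazone and 41.7 and 20.8 in KO diet, but at 4.76, 4.22 and 10.9 in KO rosiglitazone, below every other library. In reads, Pparg-204 had 42, 31 and 92 in KO rosiglitazone and 238 to 1385 in the other 8 libraries.

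As a share of both transcripts, Pparg-202 held 27.5%, 34% and 36.1% in WT diet, 37.2%, 29.7% and 61.4% in WT rosiglitazone, 32.3% and 23.2% in KO diet, and 86.7%, 83.6% and 58.5% in KO rosiglitazone. A single WT rosiglitazone library lay inside the range of KO rosiglitazone. Of all Pparg1-type TPM, Pparg-202 held 64.5%, 39% and 32.1% in KO rosiglitazone, 39.5% in WT rosiglitazone 3 and 15% to 22.3% elsewhere. Pparg-206, which shares part of the Pparg-204 first exon, averaged 10.4 rescaled TPM in KO rosiglitazone and 6.22 to 11.8 in the other groups. The split between Pparg-202 and Pparg-204 was noticed in the data and was not tested, and a shift between first exons is not shown. The share of a library's reads on protein-coding genes was lowest in KO rosiglitazone 1, at 59%. In KO rosiglitazone 2 and 3 it was 71.5% and 71%, inside the range of the other groups (68.9% to 83%). The part of this share in the split was not tested.

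**Figure D4:**
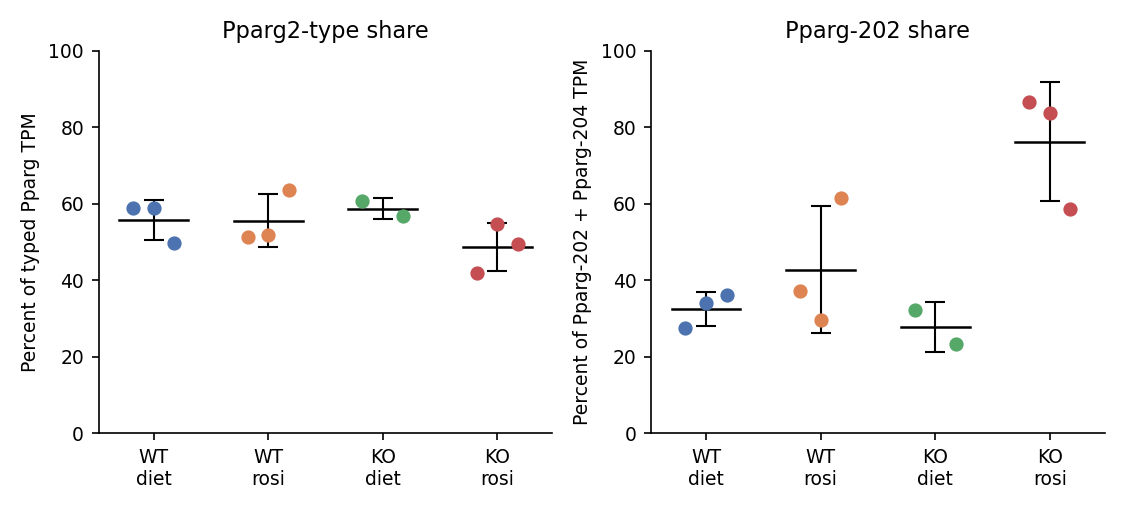
Pparg2-type percent of typed Pparg TPM (left) and Pparg-202 percent of Pparg-202 plus Pparg-204 TPM (right) by group, on axes from 0 to 100; points are libraries, bars are means and SD. On the left KO rosiglitazone lies below KO diet, and all other pairs of groups overlap. On the right KO rosiglitazone (58.5% to 86.7%) sits above all but 1 of the other libraries.

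Pparg-203, Pparg-205, Pparg-206 and Pparg-207 each had fewer reads than Pparg-201 in every library. In KO rosiglitazone 1, Pparg-202 had 319 reads and Pparg-201 had 293. Pparg-207 had 16 to 394 reads a library, and in KO rosiglitazone 2 its 55 reads exceeded the 31 of Pparg-204. Pparg-207 averaged 30 ± 3.14, 26.2 ± 11.1, 26 ± 20.7 and 10.7 ± 6.48 rescaled TPM in WT diet, WT rosiglitazone, KO diet and KO rosiglitazone. Pparg-206 averaged 10.3 ± 2.73, 11.8 ± 5.88, 6.22 ± 4.05 and 10.4 ± 7.44, from at most 66 reads a library. The retained introns Pparg-205 and Pparg-203 averaged 9.57 ± 1.93 and 16.7 ± 15.4 in KO rosiglitazone and 20.5 ± 4.42 and 45.6 ± 6.11 in WT rosiglitazone. Pparg-203 is 213 bases long, so a few reads give a large TPM, and it was listed at 0 in KO rosiglitazone 1.

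Relative to mature adipocyte markers, Pparg RNA stood higher in KO than in WT. The sum of 14 mature adipocyte markers was 27805, 11130 and 9607 CPM in WT diet and 26094, 30201 and 26711 CPM in WT rosiglitazone. It was 4568 and 1693 CPM in KO diet and 3232, 3849 and 3535 CPM in KO rosiglitazone, so every KO library lay below every WT library. All 14 markers were called lower in KO with rosiglitazone (median log2 fold change -3.30, against 0.05 over all genes), beside -1.67 for Pparg. On diet 1 of 14 passed, Cfd, which encodes adipsin (-4.43 ± 0.53, edgeR adjusted p = 0.0225), with 0.111% of all genes called lower and 0.026% higher, and the median was -2.40. All 14 lay below 0 there, 12 had an unadjusted edgeR p under 0.05, and DESeq2 called 9.

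Per 1000 CPM of these markers, Pparg was at 6.64, 8.43 and 8.02 CPM in WT diet, 5.29, 6.13 and 6.09 in WT rosiglitazone, 33.3 and 24.6 in KO diet and 14, 16.1 and 12.7 in KO rosiglitazone. All KO libraries lay above all WT libraries, and the KO diet libraries above KO rosiglitazone. With the log2 marker sum as a covariate in the edgeR fit, the sign of the genotype difference turned. On diet it was 1.98 (adjusted p = 0.00291), with rosiglitazone 1.39 (adjusted p = 0.041), and rosiglitazone in KO gave -1.03 (adjusted p = 0.00775). The marker sum did not overlap between genotypes, so that this covariate and genotype can barely be told apart, and 8 of the 14 markers also stand in the list of PPARγ targets.

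**Figure D5:**
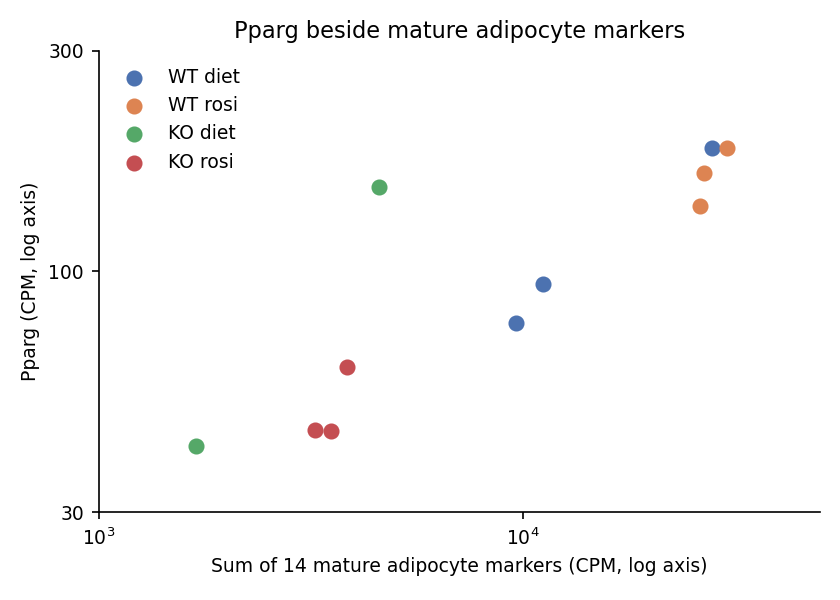
Pparg CPM (vertical) against the summed CPM of 14 mature adipocyte markers (horizontal), both on log axes, 1 point a library, coloured by group. KO diet 1 has Pparg at 152 CPM, a WT-like level, beside a marker sum of 4568 CPM, below that of every WT library.

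Markers of other cells that can contain Pparg differed between the genotypes with rosiglitazone, where 5.47% of all genes were called higher and 9.5% lower in KO. Summed macrophage markers were 571 to 710 CPM in WT rosiglitazone and 2190 to 2709 in KO rosiglitazone, and 7 of 10 were called higher in KO. Endothelial markers summed to 757 to 1039 and 499 to 539 CPM, with 3 of 8 called lower. Adipocyte progenitor markers summed to 1748 to 2690 and 4706 to 9183 CPM, with 2 of 8 called higher. Leaving out 1 library at a time, 5 to 9 macrophage markers, 0 to 6 endothelial markers and 0 to 4 progenitor markers were called, and by title 3, 0 and 0. Endothelial calls fell to 0 without WT rosiglitazone 1 or 2 or any KO rosiglitazone library, and progenitor calls without WT rosiglitazone 1 or 2 or KO rosiglitazone 1. On diet KO diet 1 lay above WT for macrophage and progenitor markers (3091 against 828 to 1150 CPM, and 8420 against 2479 to 5130), while KO diet 2 lay inside the WT ranges (1038 and 2888 CPM). EdgeR called none of these markers there, with 6 macrophage, 1 endothelial and 4 progenitor markers at an unadjusted p under 0.05, and DESeq2 called 1. The part of these cells in the Pparg values was not tested. B-cell markers summed to 210 to 520 CPM in WT rosiglitazone and 799 to 950 in KO rosiglitazone, none of the 10 called by edgeR or DESeq2 and none at an unadjusted p under 0.05. On diet, the libraries with the most B-cell RNA, WT diet 2 and 3 and KO diet 2 (1277, 1089 and 1332 CPM), were those with the least Pparg. With the B-cell marker sum as a covariate, KO against WT for Pparg on diet was -0.91 (adjusted p = 0.0418), and with rosiglitazone -0.78 (adjusted p = 0.0529). With rosiglitazone the B-cell sums did not overlap between genotypes, so this covariate and genotype are hard to tell apart there.

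Of the 5 genes of PPAR receptors and retinoid X receptors other than Pparg, 2 were called lower and none higher in KO with rosiglitazone, where 9.5% of all genes were called lower and 5.47% higher. None was called by title or without WT rosiglitazone 2, KO rosiglitazone 1 or KO rosiglitazone 3, and 1 without WT diet 2, WT rosiglitazone 1 or WT rosiglitazone 3. Rxra, the main partner receptor in fat, averaged 256 ± 12.3 CPM in WT and 89.4 ± 16.5 in KO (log2 fold change -1.52 ± 0.33, edgeR adjusted p = 0.0148), with no overlap. The other retinoid X receptor genes, Rxrb (0.02, adjusted p = 0.935) and Rxrg (-1.30, adjusted p = 0.102), did not pass. Ppara averaged 80 ± 39.3 and 23.1 ± 11.7 CPM (-1.79 ± 0.49, adjusted p = 0.037), a call kept in 5 of 11 fits that each left out 1 library, and its sign turns when WT is grouped by title. Rosiglitazone in WT gave 2.11 ± 0.50 for Ppara (adjusted p = 0.0609). EdgeR called none of the 5 in the other comparisons, where at most 2 had an unadjusted p under 0.05. DESeq2 called 1 there, for rosiglitazone in WT, where limma-voom called 4 higher. Without the 4 muscle-rich libraries no gene of any list below was called in this comparison, as no gene of the whole table was.

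Of 17 coregulators, 5 were called lower and 1 higher in KO with rosiglitazone, beside 9.5% and 5.47% of all genes. The count lower was 2 by title, 0 with the adipocyte marker covariate, 2 without KO rosiglitazone 1, and 3 without any 1 of the other 5 compared libraries. In the other comparisons edgeR called none, with 5 at an unadjusted p under 0.05 for the drug in WT, 4 for KO on diet and 3 for the interaction, and DESeq2 called 5, 2 and none. Prdm16, a coregulator of brown and beige fat genes, went from 34.6 ± 2.77 to 8.69 ± 0.738 CPM (-1.99 ± 0.27, edgeR adjusted p = 0.00236). The corepressors Nrip1 (-1.60 ± 0.26, adjusted p = 0.00447) and Ncor1 (-0.95 ± 0.19, adjusted p = 0.011) were also lower, and the coactivator Ncoa3 was higher (0.82 ± 0.16, adjusted p = 0.0104). On diet Prdm16 had a log2 fold change of -1.53 ± 0.31 that did not pass (adjusted p = 0.108).

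Of 21 transcription factors known to act on Pparg, 7 were called lower and 2 higher in KO with rosiglitazone, beside 9.5% and 5.47% of all genes. By title 0 were lower and 1 higher, and with the adipocyte marker covariate 1 was lower and 3 higher (median log2 fold change 0.49, against -0.56 without it). Leaving out 1 compared library gave 3 to 5 lower, with 3 without WT rosiglitazone 2, KO rosiglitazone 1 or KO rosiglitazone 3 and 4 without WT rosiglitazone 1 or KO rosiglitazone 2. In the other comparisons edgeR called none, with 3 to 5 at an unadjusted p under 0.05, and DESeq2 called 1 to 4. Cebpa, which with PPARγ maintains the adipocyte programme, went from 658 ± 48 CPM in WT to 158 ± 6.09 in KO (-2.06 ± 0.36, edgeR adjusted p = 0.00654). Klf15, an activator of Pparg in adipogenesis, went from 87.7 ± 10.8 to 16.4 ± 3.55 CPM (-2.42 ± 0.32, adjusted p = 0.00192), and Stat5a was lower as well (-1.01 ± 0.18, adjusted p = 0.007). Egr2, an early adipogenic regulator also known in macrophages, rose from 2.21 ± 0.11 to 14.4 ± 3.48 CPM (2.70 ± 0.30, adjusted p = 0.00101).

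Of 12 enzymes that modify or degrade PPARγ protein, 2 were called lower and none higher in KO with rosiglitazone, the ubiquitin ligase genes Fbxo9 (-1.24 ± 0.25, edgeR adjusted p = 0.0116) and Nedd4 (-1.64 ± 0.39, adjusted p = 0.0225), beside 9.5% of all genes called lower. None was called lower by title or without WT rosiglitazone 2, KO rosiglitazone 1 or KO rosiglitazone 3, 1 without any 1 of the other 3 compared libraries, and 5 without WT diet 1. EdgeR called none in the other comparisons, where at most 2 had an unadjusted p under 0.05 and DESeq2 called at most 1. Protein was not measured.

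Known targets of PPARγ were lower in KO with rosiglitazone, as were mature adipocyte markers, with which the target list shares 8 genes. Of 30 targets, 20 were called lower and none higher in KO with rosiglitazone (median log2 fold change -2.23), where 9.5% of all genes were called lower. With WT grouped by title 4 were called lower and 1 higher (median -1.06), and with the adipocyte marker sum as a covariate none was lower and 6 were higher (median 0.37). Pck1, whose enzyme makes the glycerol backbone of triglyceride, went from 3338 ± 554 to 311 ± 28.5 CPM (-3.42 ± 0.44, edgeR adjusted p = 0.00176). Retn, which encodes resistin, went from 188 ± 20 to 15.6 ± 1.92 CPM (-3.59 ± 0.48, adjusted p = 0.00209). The fatty acid transporter gene Slc27a1 (-2.04 ± 0.32) also fell.

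In WT, rosiglitazone left 28 of 30 targets with a log2 fold change above 0, and the median was 1.13 against -0.05 over all genes. Mature adipocyte markers, 8 of them also in the target list, had 11 of 14 above 0 and a median of 0.94. Of the 30 targets 2 were called higher, where 1.55% of all genes were called higher and 0.593% lower. Plin5, a lipid droplet protein gene, went from 19.3 ± 7.82 to 94.7 ± 30.9 CPM (2.29 ± 0.39, edgeR adjusted p = 0.0257), and Slc27a1 from 402 ± 134 to 1240 ± 60.1 CPM (1.63 ± 0.32, adjusted p = 0.0361). Both signs necessarily turn if WT is grouped by title, which swaps the WT groups. None of the targets was called without WT diet 2 or 3, any WT rosiglitazone library or KO rosiglitazone 3, nor in the fit of the compared groups alone. There were 14 calls without WT diet 1, 5 without either KO diet library and 1 without KO rosiglitazone 1 or 2. Limma-voom called 26 of the 30 higher and 1 lower, and DESeq2 12 higher and 1 lower. In KO the median was 0.05 with 16 of 30 above 0. EdgeR called none (0.0148% of all genes were called), 2 had an unadjusted p under 0.05, and DESeq2 called 2. On diet the median of KO against WT was -1.03. EdgeR called none, 19 had an unadjusted p under 0.05, and DESeq2 called 9. The interaction was below 0 for all 30 with a median of -1.28, and edgeR called none, where 0.104% of all genes were called. Of the 30, 9 had an unadjusted p under 0.05 and DESeq2 called 1. For mature adipocyte markers the interaction was below 0 in 12 of 14, with a median of -0.96. Cidea, a lipid droplet gene of thermogenic fat, had -4.23 ± 1.15 (adjusted p = 0.257). These comparisons share libraries, and the counts are not independent of each other.

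Around Pparg, 34 annotated genes lie within 500 kb, of which 20 were tested. In KO with rosiglitazone 5 were called lower and 1 higher, beside 9.5% and 5.47% of all genes, and the median log2 fold change was -0.07. Gm44079 is an antisense gene inside Pparg (6:115451815-115464990, minus strand) and had 20.1 to 249 estimated reads a library. The protocols name no strand, so that reads of Gm44079 and Pparg may not be told apart there. Its log2 fold change in KO with rosiglitazone was -1.83 ± 0.64 (edgeR adjusted p = 0.0833).

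Across the 11 libraries, the genes whose log2 CPM followed Pparg most closely among 13742 compared were Nckap1 (Pearson r = 0.989), Fhl1 (0.988), Gstm5, Nr3c1 and Wdr35 (0.986 each) and Cldn12 (0.985). Nr3c1 encodes the glucocorticoid receptor. Farthest from it were Col11a2 (-0.989), Rfc2 (-0.983) and Tcof1 (-0.977). The libraries form 4 groups and differ in the cell markers above, so these values describe the set of libraries. Nckap1, which encodes a subunit of an actin-regulating complex, averaged 235, 340, 186 and 105 CPM in WT diet, WT rosiglitazone, KO diet and KO rosiglitazone.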

How the data were processed

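Per the labels' protocols, frozen tissue was extracted with Trizol and libraries were built with an Illumina Nextera XT kit. According to the submitters' processing notes, Salmon assigned reads to transcripts, edgeR was used too, and the builds were GRCm38 and mm10. The Salmon version and annotation release are not stated in the sources used here. The authors deposited 1 table a library, which lists for every transcript an estimated count and its TPM, per the file headers. Identifiers were matched to GENCODE M21: 131892 of 132288 (99.7%) without their version, giving 52282 genes, and the 396 unmatched transcripts held 0.0985% to 0.144% of reads.

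Groups came from the genotype and treatment fields. Estimated counts were summed per gene, or per Pparg type, and rounded. They were tested in edgeR 4.0.16 (R 4.3.3, quasi-likelihood, robust, TMM, filterByExpr by group) in 1 model over all 11 libraries with 5 contrasts, with Benjamini-Hochberg adjustment over 26960 genes or 71124 features at 0.05. CPM values are TMM-scaled. DESeq2 1.42.0 and limma 3.58.1 were alternatives, among them limma on log2(TPM + 1). The edgeR script was tested on simulated data. Type shares were compared by an exact permutation test stratified by the other factor.

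Replicates differed well beyond counting noise (chi-square per degree of freedom 26.5 to 139). Depth limits the transcripts with few reads, as said beside them. The genes named are Pparg, its transcripts, overlapping neighbours, Rptor, in each list up to 4 called members with the smallest p or else the first 2, and the 6 genes most and 3 least correlated with Pparg on log2(CPM + 1) among those averaging a log2 CPM of at least 1. One named list member is not reported here. The members and lists were chosen with earlier results of these data known. Promoter sequences and their build are from RefSeq.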

Additional observations from a re-analysis of the deposited data

Results flagged for a closer look

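Itgax, a macrophage marker that encodes CD11c, was the only gene named here whose response to rosiglitazone differed between genotypes by the interaction test (log2 value 2.98 ± 0.43, edgeR adjusted p = 0.0448). The drug's log2 fold change was -1.68 in WT and 1.29 in KO. It is no Pparg transcript, and with WT grouped by title the interaction was -0.39. The call was kept in 3 of 11 fits that each left out 1 library, those without WT diet 1, KO diet 1 or KO diet 2 (adjusted p from 0.0323 to 0.178 over the 11), and in 8 of the 12 other settings. With the replicate block its adjusted p was 0.0692. No group held enough libraries for a check of single outlying libraries.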

How the results depend on the processing

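Pparg in KO against WT with rosiglitazone kept its direction in all alternatives except the adipocyte marker covariate. Grouping WT by title gave -1.22 for this result, and for rosiglitazone in WT -0.45 (gene), -0.56 (Pparg1-type) and -0.39 (Pparg2-type). This grouping swaps the WT groups, so signs for the drug in WT turn necessarily. It also gave 0.32 for Ppara in KO with rosiglitazone, -2.29 for Plin5 and -1.63 for Slc27a1 with the drug in WT, and -0.39 for the Itgax interaction. The mature adipocyte marker covariate gave, for the gene, -0.43 for the drug in WT, -1.03 for the drug in KO, 1.98 for KO on diet and 1.39 for KO with the drug. For Pparg1-type it gave -0.24 (drug in WT), 1.74 (KO on diet) and 1.30 (KO with the drug), and for Pparg2-type -0.59, 2.36 and 1.59. In KO with the drug it gave 0.17 for Cebpa, 0.24 for Fbxo9, 0.74 for Nedd4, 0.20 for Ppara and 0.54 for Rxra. The B-cell marker covariate gave, for the gene, -0.32 (drug in WT), -0.91 (KO on diet), -0.78 (KO with the drug) and 0.13 (interaction). For Pparg1-type it gave -0.23 (drug in WT), 0.09 (drug in KO) and 0.32 (interaction), and for Pparg2-type -0.42 (drug in WT). Limma-voom gave 0.79 for the gene with the drug in WT. In KO with the drug the types passed in DESeq2 (-1.56 and -1.88), limma-voom (-1.46 and -1.80) and the fit of the compared groups alone (-1.55 and -1.87). Without the 4 muscle-rich libraries the gene was at -1.53 in KO with the drug, and Pparg2-type at -0.08 with the drug in WT. The cause of these shifts was not tested.

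Leaving out 1 library at a time gave, for the gene, -1.58 to 0.29 (drug in KO), -1.51 to 0.36 (KO on diet) and -1.78 to -1.57 (KO with the drug). Pparg1-type ran from -1.21 to 0.50 (drug in KO) and -1.48 to 0.25 (KO on diet), and Pparg2-type from -1.93 to 0.10 and -1.58 to 0.48. The share tests stayed without a call in every alternative, with p from 0.05 to 0.412 for the drug and 0.333 to 0.97 for genotype when 1 library was left out.

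Genes called in KO with the drug numbered 4037, from 0 without the muscle-rich libraries and 624 by title to 9182 in limma-voom, and 1498 to 5919 with 1 library left out. In the other comparisons the counts were 578 (0 to 7325) for the drug in WT, 4 (0 to 1496) for the drug in KO, 37 (0 to 4925) for KO on diet and 28 (0 to 737) for the interaction. Replicate numbers are shared across groups, but same-numbered libraries correlated from -0.40 to 0.58, so they do not pair the libraries. With the number as a replicate block Pparg in KO with the drug was at -1.68 (adjusted p = 0.0459), no Pparg call changed, and 3444 genes were called there.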
